A study of Homo sapiens with 6 samples.

Results

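The probes described here were the 2773 oligos of a combined lncRNA and mRNA Agilent array whose names begin with RNA, chosen by name alone from the 75149 probes of the array that are not controls. The array measured total RNA of KYSE30, a cell line of human esophageal squamous cell carcinoma. The Epist group carried the long noncoding RNA Epist in the lentiviral vector pCDH-MSCV-MCS-EF1-GFP+Puro, and the control group carried the control vector, with 3 biological replicates in each group. Each of the 3 arrays, all on 1 slide, held a control sample in the Cy3 channel and an Epist sample in the Cy5 channel. No array had the dyes swapped, so dye and group cannot be told apart in any difference given below. A single cell line was used, and whether its transduced cells were a pool or a clone was not given in the sources used here. The defining markers of squamous cells could not be checked, because no table used here pairs a probe of the array outside this set with a gene (0 p probes and 0 A_ probes in the study's probe map).

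The probe names did not describe long noncoding RNAs. None of the 2773 names held lncRNA or linc, and 571 named a class of structural RNA. These were 306 probes named snoRNA_scaRNA, 141 named snRNA, 99 named tRNA, 17 named rRNA, 5 named vault_RNA, 2 named ribozyme and 1 named SRpRNA. The names of 1246 probes held RNS and those of 938 held imsncRNA, terms that the sources used here do not define, and 18 names held a serial number alone. In 1817 names the last number may be a length, since it never rose as the index before it rose. It was at most 200 in 1741 of them, from 60 to 200 for RNS, from 65 to 73 for tRNA and from 113 to 5192 for rRNA.

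As background, tRNAs bring amino acids to the ribosome and rRNAs form its core. Small nucleolar RNAs (snoRNAs) guide the chemical modification of rRNA, and scaRNAs do the same for the small nuclear RNAs (snRNAs) in Cajal bodies. The snRNAs are the core of the spliceosome, which removes introns, and the RNA of the signal recognition particle helps to bring ribosomes to the endoplasmic reticulum. Vault RNAs belong to large ribonucleoprotein particles, and ribozymes are RNAs that catalyse reactions such as the cutting of precursor RNAs. Members of these families share sequence, and since the probe sequences were not used here, it was not tested whether probes share a target.

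The names could be tied to known genes in only a few cases. The study's probe map was held in part, with 2425 probes, and it appears to be of another version of the array, since only 2 of them were on this one, both among the 2773. The pairings below rest on that map. RNA144108|snRNA_61_317 was paired with the name 7SK. The 7SK RNA is a nuclear RNA that holds the elongation factor P-TEFb inactive, and whether this probe detects it was not tested. RNA147061|p0165_imsncRNA256 was paired with CTD-2561B21.10, which GENCODE annotates as a lncRNA on the minus strand at chr17:78997345-78999303 (GRCh37). No probe of the array was paired with the Epist gene in the part of the map that was held (0 probes). Since only 2 probes of that part were on the array, this does not show that the array lacks a probe for Epist. The overexpression itself was not checked by these probes, and whether any probe of the array detects Epist was not tested. The last numbers of RNA143570|rRNA_9_954 and RNA143568|rRNA_7_1559 equal the lengths of the mitochondrial rRNA genes MT-RNR1 (954 bases, chrM:648-1601, plus strand) and MT-RNR2 (1559 bases, chrM:1671-3229, plus strand). This is a match of length alone, and the identity of these probes was not tested.

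The serial numbers gave the 18 probes without a class a place among the others. The serial number exceeded the index by the same amount, 143561, in all 17 rRNA names, so that these names form a numbered block. Of the 18 probes without a class, 13 had a serial number inside the rRNA block, 3 inside the snRNA block and 1 inside the snoRNA_scaRNA block. Whether those 13 probes detect rRNA was not tested.

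Detection was described first, as the share of probes that were well above background in a sample. A probe counted as such where at least 50% of its spots, 2 spots for 607 probes and 3 for 2166, were so marked by the scanner software. All A_ probes had 2 spots, while 78.1% of RNA probes and 61.5% of p probes had 3. The rule was thus easier to pass for A_ probes. In the control samples 67.2%, 67.4% and 68.1% of the RNA probes were well above background, and in the Epist samples 77.1%, 79.0% and 80.4% were. The shares of the 2 groups did not overlap. The same was seen for the 38141 probes with names beginning p, at 46.6% to 47.5% in the control and 58.5% to 62.5% in Epist, and for the 34235 probes with names beginning A_, at 71.8% to 72.1% and 78.8% to 81.2%. The negative control spots differed between the channels as well, with a median processed signal of 7.74 to 8.23 in Cy3 and 3.21 to 4.29 in Cy5. The part of this background in the higher Epist shares was not tested.

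By that rule, which was easier to pass for A_ probes, RNA probes were detected nearly as often as A_ probes and far more often than p probes. The part of the number of spots in these comparisons was not tested. Averaged over both channels of an array, the share of RNA probes was lower than that of A_ probes by 2.84 percentage points (a difference of -2.84 ± 0.43, SD, n = 3 arrays), and it was lower in all 6 samples. It was higher than that of p probes by 19.23 ± 0.33 percentage points (SD, n = 3 arrays), again in all 6 samples. The gap to A_ probes was wider in the control, at -4.74, -4.46 and -3.97 percentage points, than in Epist, at -1.72, -1.37 and -0.80. With 3 arrays, the exact two-sided sign-flip permutation test of each difference cannot go below p = 0.25, which both reached. In all, 1794 RNA probes passed on every array in both groups, 315 did so in Epist only and 0 in the control only, and 499 (18%) were well above background in no sample. Over all 75101 probes with a value, the same counts were 41731, 8264 and 9, and 18640 (24.8%) were so in no sample. The excess of probes that passed in Epist only was thus seen over the whole array.

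The classes differed in how often they were seen. Probes named snoRNA_scaRNA and tRNA were well above background most often among the large classes, at 76.7% ± 1.3 and 76.8% ± 2.0 in the control and 83.6% ± 1.1 and 83.2% ± 1.5 in Epist (SD, n = 3 samples each). Probes named snRNA were seen least often, at 46.8% ± 2.1 in the control and 57.0% ± 1.6 in Epist. The shares of RNS probes (67.2% ± 0.33 and 79.2% ± 2.0) and imsncRNA probes (67.2% ± 0.59 and 79.5% ± 1.6) lay close to that of the whole set. All 5 vault RNA probes passed the filter for testing, 1 of the 2 ribozyme probes did, and the SRpRNA probe, RNA145895|SRpRNA_9_308, was well above background in no sample.

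The last number in the name was set against detection. Among the 1817 probes that carry it, the share in the control was 68.0% for numbers under 80, 62.7% for 80 to 119, 72.7% for 120 to 159, 69.0% for 160 to 199 and 53.4% for 200 and over. The shares did not run in one direction, and the classes were unevenly spread over these ranges. Within snoRNA_scaRNA the probes with 120 to 159 were well above background in 91.8% of cases in the control (110 probes), against 66.4% for numbers under 80 (120 probes). Within snRNA, those with 120 to 159 were seen in 59.9% (49 probes), those with 160 to 199 in 24.6% (19 probes) and those with 200 and over in 37% (54 probes). Within RNS the shares over the 5 ranges were 62.8%, 61.5%, 68.6%, 70.6% and 81.2% in the control, the last of 16 probes.

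The signal level was then compared as the log2 of the processed signal, quantile normalized across the 6 samples. A level on this scale compares sets of probes and does not rank RNAs by abundance, since probes differ in how they bind. The median RNA probe had a log2 signal of 6.75, 6.75 and 6.76 in the control samples and 6.79, 6.80 and 6.81 in the Epist samples. It lay between the p probes, with medians of 4.97 to 4.99, and the A_ probes, with medians of 7.39 to 7.41, and the ranges of the 3 sets did not overlap. The median RNA probe was lower than the median A_ probe by 0.62 ± 0.013 (a difference of -0.62 ± 0.013) and higher than the median p probe by 1.80 ± 0.0079 on the log2 scale (SD, n = 3 arrays, each with an exact p of 0.25, the smallest possible). Between 4.62% and 5.01% of the RNA probes exceeded a log2 signal of 12, against 2.05% to 2.07% of p probes and 6.07% to 6.12% of A_ probes.

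The tRNA probes were the brightest of the large classes. Their median log2 signal was 10.26, 10.46 and 10.34 in the control and 10.82, 10.66 and 10.52 in Epist, and 41.4% to 48.5% of the 99 probes exceeded 12. The median fell on the same probe, RNA143553|tRNA_470_66, in all 6 samples, so the gap between the groups at the median is that of a single probe. The brightest tRNA probe, RNA143558|tRNA_475_66, had a log2 signal of 15.00, 15.15 and 15.02 in the control and 15.16, 15.05 and 14.79 in Epist. RNA143503|tRNA_420_69 followed with 14.98, 14.75 and 14.73 in the control and 15.14, 14.76 and 14.71 in Epist. In both probes the values of the 2 groups overlapped.

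The median log2 signal of snoRNA_scaRNA probes was 7.45 ± 0.031 in the control and 7.42 ± 0.105 in Epist, and that of snRNA probes was 4.68 ± 0.21 and 4.81 ± 0.222 (SD, n = 3 samples each). The snRNA median thus lay near that of the p probes. RNA144148|snRNA_101_302, the brightest snRNA probe, nevertheless had 12.01, 12.18 and 12.15 in the control and 12.17, 12.21 and 12.18 in Epist. The probe paired with 7SK, RNA144108|snRNA_61_317, had 2.91, 2.72 and 3.52 in the control and 3.23, 3.70 and 3.19 in Epist and was well above background in none of the 6 samples. The probe paired with CTD-2561B21.10, RNA147061|p0165_imsncRNA256, was likewise well above background in none, at 3.58 to 4.19 in the control and 3.83 to 4.16 in Epist. Neither probe could therefore be tested, and no conclusion is drawn about the level of the 7SK RNA itself.

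The brightest probes of the whole set were mostly imsncRNA probes and probes of the rRNA block. RNA147698|p0802_imsncRNA596 had a log2 signal of 16.91, 16.64 and 17.11 in the control and 16.29, 16.36 and 16.55 in Epist. Its Epist values were all below its control values, with a log2 fold change of -0.49 ± 0.13 (SE) that did not pass the test (limma adjusted p = 0.0724, or 0.00406 with the array as a block). It passed when the processed signal was not normalized further, at -0.43 (limma adjusted p = 0.0477). The change was -0.10 under an alternative that changed background correction and normalization together (normexp, loess and Aquantile). RNA147405|p0509_imsncRNA82 had 15.97, 16.15 and 16.14 in the control and 16.36, 16.20 and 16.34 in Epist, a change of 0.21 (adjusted p = 0.216) that was 0.56 and passed under that alternative (adjusted p = 0.0201). RNA147618|p0722_imsncRNA497 lay at 15.65 to 15.81 and 15.73 to 15.90, and RNA147303|p0407_imsncRNA822 at 15.59 to 15.76 and 15.38 to 15.65, with groups that overlapped. Under the same alternative the change of RNA147618|p0722_imsncRNA497 went from 0.11 to 0.40 (adjusted p = 0.0473) and that of RNA147303|p0407_imsncRNA822 from -0.12 to 0.13 (adjusted p = 0.485), so the last turned its sign. The fifth, RNA143577, differed more between arrays than between groups, as described below. Its log2 fold change of -0.36 had an adjusted p of 0.853 in limma, or 0.0302 with the array as a block, and was -0.17 under that alternative. Of the 20 brightest probes, 6 were imsncRNA, 5 had no class, 4 were tRNA, 3 RNS and 2 rRNA, and no RNA probe was saturated in any sample (0 probes).

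The spread between replicates of most RNA probes was small. A probe was tested where it passed the background rule on every array of either group, which left 2109 RNA probes. Over these, the median SD of the log2 signal over 3 replicates was 0.141 in the control and 0.142 in Epist. It was 0.153 and 0.150 for the 21543 tested p probes and 0.128 and 0.135 for the 26352 tested A_ probes. The SD fell with brightness, from 0.255 in the control for RNA probes of log2 signal 4 to 6 to 0.108 for those of 8 to 10. It then rose again, to 0.129 in the control and 0.166 in Epist for the 135 RNA probes over 12, where the p probes had 0.099 and 0.104 and the A_ probes 0.095 and 0.111. The median SD among spots of the same probe on an array was 0.071 for those RNA probes, so the repeat spots of an array lay closer together than the arrays did.

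A small set of RNA probes spread far more. In 20 of the 2109 tested RNA probes (0.948%) the SD exceeded 1 in both groups, against 0.483% of p probes and 0.304% of A_ probes. Of the 135 RNA probes over a log2 signal of 12, 13 did (9.63%). The 20 were 10 of the 14 tested probes without a class, 3 of the 11 tested rRNA probes and 7 others. All 10 without a class had serial numbers inside the rRNA block, where 11 were tested. Of the 20, 0 passed the limma test between groups without the array as a block, against 4.64% of all probes, and 3 passed with it. A large SD within the groups chose these 20 and also makes that test hard to pass without the block, so no conclusion is drawn from the 0. With that block 9.82% of all probes passed as higher and 10.7% as lower.

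RNA143598, a probe without a class inside the rRNA block, spread most. Its log2 signal was 8.60, 10.78 and 15.15 on arrays 1, 2 and 3 in the control and 8.57, 10.68 and 14.92 in Epist. It was lowest on array 1 and highest on array 3 in both channels, a 93.9-fold range in the control, yet the channels of an array never differed by more than 0.23. RNA143599|rRNA_38_373 had 9.93, 14.88 and 15.22 in the control and 10.01, 14.25 and 14.88 in Epist. RNA143568|rRNA_7_1559 had 12.16, 15.33 and 16.32 in the control and 12.43, 14.84 and 16.08 in Epist. Both were again lowest on array 1 and highest on array 3 in each channel, with ranges of 39.0-fold and 17.9-fold in the control. RNA143577, among the 5 brightest of the set, had 13.79, 15.93 and 16.81 in the control and 13.73, 15.29 and 16.42 in Epist, an 8.13-fold range in the control.

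This order held for all 13 such probes of the rRNA class or without a class, which were lowest on array 1 and highest on array 3 in both groups. Their ranges in the control ran from 5.34-fold to 93.9-fold, while no pair on an array differed by more than 0.64 and no log2 fold change between groups exceeded 0.36 in size. The range of RNA143598 was 87.9-fold before quantile normalization. Other bright rRNA probes differed less between the arrays, though in the same order. RNA143570|rRNA_9_954 had 15.17, 15.31 and 15.43 in the control and 15.09, 15.25 and 15.31 in Epist. RNA143561|rRNA_0_5192 had 15.14, 15.29 and 15.51 in the control and 14.83, 14.89 and 15.04 in Epist. RNA143563|rRNA_2_1871 had 14.06, 14.61 and 14.74 in the control and 13.95, 14.49 and 14.57 in Epist. All 3 were lowest on array 1 and highest on array 3 in both channels, within a smaller range than the 13. What differed between the RNA samples of the 3 arrays for these probes was not tested.

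The other 7 probes did not share a single order of the arrays. RNA146915|p0019_imsncRNA52 had the order of the 13, with 5.98, 6.92 and 8.37 in the control and 6.38, 7.15 and 8.47 in Epist. RNA146924|p0028_imsncRNA72 instead stood out on array 2 alone, with 5.39, 9.83 and 5.18 in the control and 5.27, 10.33 and 5.45 in Epist. RNA33596|snoRNA_scaRNA_192_90 did the same, with 6.49, 10.27 and 6.46 in the control and 6.21, 10.73 and 6.56 in Epist. RNA147187|p0291_imsncRNA578 was lowest on array 3, with 15.69, 14.92 and 12.49 in the control and 15.17, 14.51 and 12.19 in Epist. RNA95881|RNS_963_101 had 8.02, 6.77 and 4.44 in the control and 7.76, 6.74 and 3.95 in Epist. The channel pairs thus moved together whichever array stood out, and in 18 of the 20 probes the same array was lowest in both groups.

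Samples of one array also deviated together over all probes. Over the 2109 tested RNA probes, the deviations of the control and Epist samples from their group means correlated at 0.81, 0.67 and 0.81 on arrays 1, 2 and 3, across probes that share each array's hybridization. The same values were 0.58, 0.68 and 0.63 for p probes and 0.58, 0.58 and 0.64 for A_ probes. Within the large classes they were 0.63, 0.68 and 0.77 for imsncRNA, 0.71, 0.68 and 0.71 for RNS and 0.71, 0.68 and 0.57 for snoRNA_scaRNA. For the 11 rRNA probes they were 0.99, 0.93 and 0.97, and for the 14 without a class 0.98, 0.92 and 0.99, so the value over all RNA probes includes these few highly variable ones.

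The change between groups was asked last, as the question of which RNAs were altered when Epist was overexpressed. Without the array as a block few RNA probes passed the test, and all but 1 of them differed by less than 2-fold. In this limma fit 15 of the 2109 tested RNA probes were higher in Epist and 10 lower at an adjusted p under 0.05, or 0.711% and 0.474%, against 1.81% and 2.83% of all 50004 probes tested. In either direction these were 25 RNA probes, or 1.19% against 4.64%. The shares were 1.36% and 2.07% for p probes and 2.27% and 3.64% for A_ probes, so that the RNA probes lay below the background of the whole array in both directions. At 2-fold or more, 1 RNA probe was higher (0.0474%, against 0.086% of all probes) and 0 lower (against 0.196%). By the methods' t-test 1 probe passed 2-fold and p under 0.05, unadjusted, as higher (against 0.196% of all probes) and 0 as lower (against 0.21%). An unadjusted p under 0.05 at any size was reached by 231 RNA probes in limma (11%, against 21% of all probes), 2 of them higher and 0 lower by 2-fold, and by 249 in the methods' t-test (11.8%, against 19%). After Benjamini-Hochberg adjustment the methods' t-test left 1 RNA probe (0.0474%, against 0.284%). In limma without the block, 6 RNA probes were higher and 8 lower when the processed signal was not normalized further. These were 0.284% and 0.379%, against 1.14% and 1.79% of all probes, so which direction had more calls depended on the normalization.

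With the array as a block, which uses the pairing of the samples on an array, more RNA probes passed. In this fit 139 RNA probes were higher and 78 lower (6.59% and 3.70%), against 9.82% and 10.7% of all probes. At 2-fold it gave 3 higher (0.142%, against 0.236%) and 0 lower (against 0.218%). These 217 included all 25 of the probes named by the fit that left the block out, and 180 of the 217 changed by less than 0.5 on the log2 scale. Without the block no RNA probe (0) passed when array 1, 2 or 3 was left out, although 135, 174 and 134 had an unadjusted p under 0.05 (6.4%, 8.25% and 6.35%, against 15%, 16.1% and 13.4% of all probes). With the block, 69, 188 and 43 were higher when array 1, 2 or 3 was left out (3.27%, 8.91% and 2.04%, against 6.04%, 10.4% and 4.74% of all probes), and 45, 88 and 42 were lower (2.13%, 4.17% and 1.99%, against 7.35%, 11.3% and 5.88%). The RNA counts thus moved up and down with those of the whole array. Dye and group stayed together in every one of these fits.

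The whole distribution of changes was narrow for RNA probes. The median log2 fold change was 0.05 over the tested RNA probes, 0.04 over p probes, 0.01 over A_ probes and 0.03 over all probes tested. From 2.5% to 97.5% of the distribution, RNA probes ran from -0.34 to 0.47, p probes from -0.52 to 0.56 and A_ probes from -0.54 to 0.56. A change of less than 0.5 in either direction was seen for 97.3% of RNA probes, 93.5% of p probes and 93.3% of A_ probes. All 3 arrays were higher in Epist for 687 RNA probes (32.6%, against 30.3% of all probes tested) and lower for 352 (16.7%, against 24.7%). These counts include the 315 RNA probes that entered the test through Epist alone. Over the 1794 that passed in both groups, 574 were higher on all 3 arrays (32%, against 30% of all such probes) and 320 lower (17.8%, against 27.6%), and the median log2 fold change was 0.03, against 0.01.

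The calls fell into 3 of the classes. The imsncRNA probes gave 5 higher and 6 lower of 719 tested (0.695% and 0.834%), the snoRNA_scaRNA probes 4 and 4 of 250 (1.6% each), and the RNS probes 6 and 0 of 955 (0.628% and 0%). Each share was below that of all probes tested, 1.81% higher and 2.83% lower. None of the 74 snRNA, 80 tRNA, 11 rRNA, 14 unclassed, 5 vault RNA and 1 ribozyme probes passed (0 in limma), where 8, 6, 1, 1, 1 and 0 had an unadjusted p under 0.05 (10.8%, 7.5%, 9.09%, 7.14%, 20% and 0%, against 21% of all probes). With the block the imsncRNA probes gave 54 higher and 29 lower, the RNS probes 46 and 31, the snoRNA_scaRNA probes 24 and 13, the snRNA probes 7 and 1 and the tRNA probes 8 and 0. The rRNA probes gave 0 and 1, those without a class 0 and 2 and the vault RNA probes 0 and 1. Against 9.82% of all probes higher with the block, the shares were 7.51% for imsncRNA, 4.82% for RNS, 9.6% for snoRNA_scaRNA, 9.46% for snRNA and 10% for tRNA, none of them far above it. Against 10.7% lower, they were 4.03%, 3.25%, 5.2%, 1.35% and 0%. Of the small classes, the lower share was 9.09% for rRNA, 14.3% for the probes without a class and 20% for vault RNA, each of 1 or 2 probes.

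The probe past 2-fold was an imsncRNA probe near background. RNA147338|p0442_imsncRNA844 had a log2 signal of 2.81, 2.64 and 3.65 in the control and 4.66, 4.63 and 4.60 in Epist, a log2 fold change of 1.60 ± 0.33 (SE, limma adjusted p = 0.0354). The groups did not overlap, but the probe was well above background on 0 control arrays and all 3 Epist arrays, so its control level is only a bound. It entered the test through the Epist arrays alone, where it was higher, so the change itself decided the filter and no conclusion is drawn from its p-value. With the filter applied to both groups 0 RNA probes passed 2-fold. Under normexp, loess and Aquantile the group means were 6.30 and 6.64, a log2 fold change of 0.33, or at least 1.26-fold, since the control signal it is measured against was not well above background. The other 2 probes past 2-fold with the block, RNA144460|snRNA_413_133 and RNA146927|p0031_imsncRNA75, were likewise well above background on 0 control arrays and 3 Epist arrays, so their calls rest on the same filter.

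Among the probes called higher without the block and well above background on every array, RNA95378|RNS_460_164 had the largest rise. It had a log2 signal of 9.21, 9.36 and 9.35 in the control and 10.14, 9.86 and 10.06 in Epist, a log2 fold change of 0.71 ± 0.10 (SE, limma adjusted p = 0.0106). RNA95636|RNS_718_133 had 11.45, 11.05 and 11.32 in the control and 12.17, 11.71 and 11.87 in Epist, a change of 0.65 ± 0.14 (adjusted p = 0.0401). In both RNS probes every Epist sample lay above every control sample, and within the arrays the second was higher by 0.73, 0.67 and 0.55. The other RNS probes among the 10 largest rises were RNA95606|RNS_688_137 at 0.49 and RNA95651|RNS_733_131 at 0.44. The rise of RNA95636|RNS_718_133 did not pass under normexp, loess and Aquantile, at 0.60.

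The largest rises of probes named for snoRNAs were smaller than 2-fold as well. RNA33604|snoRNA_scaRNA_200_86 had 9.79, 9.72 and 9.73 in the control and 10.32, 10.28 and 10.48 in Epist, a change of 0.61 ± 0.08 (SE, limma adjusted p = 0.0105). RNA33499|snoRNA_scaRNA_95_133 had 9.25, 9.3 and 9.4 in the control and 9.94, 9.74 and 9.97 in Epist, a change of 0.57 ± 0.09 (adjusted p = 0.0174). The groups were apart in both, by more than their own spread. RNA33759|snoRNA_scaRNA_355_70 rose by 0.51 ± 0.11 (adjusted p = 0.038). The imsncRNA probes RNA147041|p0145_imsncRNA232 and RNA147067|p0171_imsncRNA264 rose by 0.47 ± 0.11 and 0.45 ± 0.10. The second did not pass under normexp, loess and Aquantile (0.32) or with scaling to the 75th percentile (0.46). Another probe named imsncRNA264, RNA147068|p0172_imsncRNA264, changed by 0.18 and was not called with or without the block. Whether both probes of that name share a target was not tested. When the processed signal was not normalized further, the calls of RNA33759|snoRNA_scaRNA_355_70, RNA147041|p0145_imsncRNA232, RNA147067|p0171_imsncRNA264, RNA95651|RNS_733_131 and RNA95636|RNS_718_133 were lost, with adjusted p from 0.0554 to 0.074 in limma and changes of 0.51, 0.47, 0.46, 0.44 and 0.64, close to those given above.

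Falls were led by an imsncRNA probe and a snoRNA_scaRNA probe. RNA147665|p0769_imsncRNA554 had 5.79, 5.78 and 5.92 in the control and 4.87, 5.07 and 4.81 in Epist, a log2 fold change of -0.91 ± 0.15 (SE, limma adjusted p = 0.0197). Its groups were apart, but the change was -0.37 under normexp, loess and Aquantile. RNA33486|snoRNA_scaRNA_82_134 had 8.08, 8.24 and 8.03 in the control and 7.29, 6.92 and 7.65 in Epist, a change of -0.83 ± 0.17 (adjusted p = 0.0365). The Epist samples of this probe spread from -1.32 to -0.38 against the control of their own array. RNA147073|p0177_imsncRNA272 had 8.34, 8.43 and 8.11 in the control and 7.52, 7.58 and 7.35 in Epist, a change of -0.81 ± 0.11 (adjusted p = 0.0115). The change was close to equal on the 3 arrays, at -0.82, -0.85 and -0.76. Another probe named imsncRNA272, RNA147072|p0176_imsncRNA272, changed by -0.6 and passed only with the block.

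The remaining falls were smaller or dimmer. RNA33747|snoRNA_scaRNA_343_71 fell by 0.79 ± 0.18 (SE), but it was well above background on 2 of the 3 control arrays and was not called under normexp, loess and Aquantile, at -0.27. RNA33491|snoRNA_scaRNA_87_133 and RNA147406|p0510_imsncRNA84 both had a change of -0.61, which under that alternative was -0.47 for the first and, no longer called, -0.28 for the second. Scaling to the 75th percentile also lost the calls of RNA33747|snoRNA_scaRNA_343_71 (-0.71, limma adjusted p = 0.0632) and RNA147406|p0510_imsncRNA84 (-0.59, limma adjusted p = 0.0546). RNA33737|snoRNA_scaRNA_333_71 was the brightest of the 10 called lower without the block, with 14.19, 14.23 and 14.23 in the control and 13.71, 13.71 and 13.88 in Epist, a change of -0.45 ± 0.08 (limma adjusted p = 0.0225). Its change was -0.41 under normexp, loess and Aquantile. RNA147445|p0549_imsncRNA190, RNA146965|p0069_imsncRNA131 and RNA147223|p0327_imsncRNA723 had changes of -0.53, -0.44 and -0.38. With the processed signal alone, the calls of RNA33747|snoRNA_scaRNA_343_71, RNA147406|p0510_imsncRNA84, RNA147445|p0549_imsncRNA190 and RNA147223|p0327_imsncRNA723 were lost (limma adjusted p from 0.0557 to 0.0698), with changes of -0.71, -0.59, -0.52 and -0.38. The probe RNA147223|p0327_imsncRNA723 had the closest replicates of these 3, at 8.82, 8.80 and 8.82 in the control and 8.45, 8.42 and 8.42 in Epist.

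No tRNA probe (0 of 80) passed without the block. The median log2 fold change over the 80 tested was 0.12, against 0.03 over all probes tested. Of the 80, 28 (35%, against 30.3% of all probes) were higher on all 3 arrays and 1 (1.25%, against 24.7%) lower. Over the 74 that passed in both groups the median was 0.13, with 26 higher and 1 lower on all 3 arrays (35.1% and 1.35%, against 30% and 27.6%). The median change was 0.32 on array 1, -0.02 on array 2 and 0.09 on array 3, so it was largest on array 1. With the block 8 were higher, the 10% given above against 9.82% of all probes, among them RNA143553|tRNA_470_66 with 10.26, 10.46 and 10.34 in the control and 10.82, 10.66 and 10.52 in Epist (0.31, adjusted p = 0.0253 with the block and 0.114 without). The snoRNA_scaRNA probes had a median change of 0.02, -0.01 and 0.13 on the 3 arrays, and the snRNA probes one of 0.19, 0.00 and 0.10.

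The vault RNA probes differed among themselves. RNA146084|vault_RNA_2_92 had 8.67, 8.85 and 8.54 in the control and 8.41, 7.67 and 7.94 in Epist, a log2 fold change of -0.68 (limma adjusted p = 0.0676, or 0.00842 with the block). The groups did not overlap, and the test was passed only with the block. The other 4 had log2 fold changes of -0.07, 0.07, 0.09 and 0.17, with adjusted p from 0.668 to 0.910. The ribozyme probe that was tested, RNA146081|ribozyme_2_78, lay at 7.31 to 7.44 in the control and 7.32 to 7.58 in Epist, and its groups overlapped (adjusted p = 0.634). RNA143561|rRNA_0_5192, whose Epist values given above were all below its control values, had a change of -0.39 (adjusted p = 0.0869, or 0.0042 with the block).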

How the data were processed

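Labelled cDNA of 6 samples was hybridized to 3 two-colour Agilent arrays. How the cDNA was primed was not given in the sources used here. The deposited spot files hold the processed signal intensity that the authors obtained with Feature Extraction, after background subtraction and dye normalization. The file headers give version 11.5.1.1, while the paper's methods name an earlier version. The deposited series table holds log2 values that the authors quantile normalized with limma, with 0 columns not matched to a sample. The files of the samples of an array were identical, and Cy3 was read for the control and Cy5 for Epist, per the labels. Array data carry no read depth, and precision is limited by 3 arrays.

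Control and outlier spots were dropped, each probe was given the mean log2 of its remaining processed signals, and the 6 samples were quantile normalized (limma 3.58.1, R 4.3.3). A probe of the set and 48 of all probes had no value in a sample. The test covered 50004 of 75149 probes, those that passed the background rule on every array of either group (lmFit and eBayes with a trend, Benjamini-Hochberg over all of them). The replicate number is the array. Deviations from group means over all tested probes correlated at 0.60, 0.63 and 0.65 within the array pairs, so the array was also fitted as a block. The script was also run on simulated data with known changes, a check that set no limit on false calls.

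The probes named were any for Epist, the 10 largest rises and falls among those called in 1 direction on all arrays, the 5 brightest, those the study's map pairs with a gene of fixed lists, and, chosen after their values were seen, those that show spread, class medians or small classes. The members and lists were chosen with earlier results of these data known. The authors' map was used for names alone, and it is held in part.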

Additional observations from a re-analysis of the deposited data

How the results depend on the processing

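The higher and lower counts of RNA probes were 15 and 10, and 139 and 78 with the replicate (array) block. The block with normexp, loess and Aquantile gave 145 and 68 (6.88% and 3.22%, against 9.89% and 10.6% of all probes). Processed signal without further normalization gave 6 higher and 8 lower (0.284% and 0.379%, against 1.14% and 1.79%). Leaving out replicate 1, 2 or 3 gave 0 of either without the block, and with it 69, 188 and 43 higher and 45, 88 and 42 lower, an alternative chosen after seeing the data. At 2-fold, the count of 1 higher probe became 3 with the block, 0 with normexp, loess and Aquantile with or without the block, 3 with no filter, 0 with the filter on both groups, 0 without any 1 replicate and 2 to 3 with the block and a replicate left out, and the count of 0 lower became 4 with no filter and 1 to 2 with the block and a replicate left out. The methods' t-test at 2-fold gave 1 higher, but 2 when paired (replicate block), 0 with normexp, loess and Aquantile paired or not, 2 with processed signal, 2 with the 75th percentile, 6 with no filter, 0 with the filter on both groups, 0 to 3 without a replicate and 0 to 2 when paired as well. It gave 0 lower, but 9 with no filter, 1 without any 1 replicate and 0 to 1 when paired as well. At 2-fold, the share of all probes is given above for the main fits and for limma with the block only. The other counts at 2-fold, of either test, were not compared with the whole array, so no conclusion about RNA probes is drawn from them. The share of RNA probes well above background, 73.2% over the 6 samples, was 70.2% when all spots of a probe had to be, and its difference from A_ probes went from -2.84 to -1.80 percentage points. The median SD, 0.141, was 0.145 without normalization, 0.153 with no filter and 0.103 to 0.122 without a replicate. Of 348 values of the 25 named probes with a fit under the alternatives, 248 kept their side of the threshold, 88 lost the call and 12 gained it. With no filter 12 of the 25 lost it, and with the processed signal alone 9. No called value turned its sign (0), but RNA147303|p0407_imsncRNA822, which was not called, did in 2 of them, from -0.12 to 0.13 under normexp, loess and Aquantile with and without the block. The slide could not be fitted as a block, since all arrays were on 1 slide, and the median signal was taken over all probes, so no filter applied to it. Probes near background have only a bound for their level. Values under normexp (offset 50), loess and Aquantile changed these choices together, and which of them moved a value was not tested.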
